A study of Mus musculus with 8 samples.

Results

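The genes described here are the subunits of the receptors for 5 fast or neuromodulatory transmitters: glutamate, GABA, glycine, acetylcholine at nicotinic receptors, and serotonin. They were chosen by symbol, as every row of the count files in the Gria, Grik, Grin, Grm, Gabr, Gabbr, Glr, Chrn or Htr families. No measured value decides which genes meet this rule, but the rule was chosen with earlier results of these data known. The rule found 80 genes among 24538 gene rows: 24 for glutamate, 21 for GABA, 16 for acetylcholine, 14 for serotonin and 5 for glycine.

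RNA was sequenced from Merkel cells and from epidermal cells labelled IFE, which the labels leave unexpanded. All mice were newborn (postnatal day 0) and carried Atoh1-GFP, green fluorescent protein tied to the transcription factor gene that Merkel cells require, and this genotype is shared by every group. The 4 groups, each with 2 libraries, were paw Merkel cells, paw IFE cells, back skin Merkel cells and back skin IFE cells. Both cell types were sorted as EpCAM-positive, the Merkel cells with GFP and without Sca1, the IFE cells with Sca1 and without GFP, so the sort itself separates the cell types by Atoh1 reporter and surface proteins but by none of the receptor genes.

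Merkel cells are touch receptor cells of the epidermis that sit against the endings of sensory nerve fibres and hold dense-core vesicles. Ionotropic receptors are ion channels assembled from several subunits, whereas metabotropic receptors signal through G proteins. Several families have obligatory partners: NMDA receptors need the Grin1 subunit, most synaptic GABA-A receptors combine alpha, beta and gamma subunits, and the GABA-B receptor is a pair of Gabbr1 and Gabbr2.

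The count totals ran between 11139306 and 26195076 per library, and 3 counts, used as the floor for a gene at 0, correspond to 0.114 to 0.293 CPM (TMM-scaled counts per a fixed library size). Between both libraries of each group, log2 CPM over genes correlated (Pearson) at 0.826 for paw Merkel, 0.923 for paw IFE, 0.872 for back Merkel and 0.897 for back IFE cells. Separate animals are not stated for the libraries of a group, so the p-values reflect only how much these samples vary, which may be technical. The 8 Merkel cell markers summed to 2880 to 3094 CPM in paw Merkel against 14.3 to 18.2 CPM in paw IFE libraries, and to 3938 to 4042 CPM in back Merkel against 8.96 to 9.27 CPM in back IFE libraries. The 5 basal keratinocyte markers summed to 1381 to 2528 CPM in paw Merkel against 19389 to 22485 CPM in paw IFE libraries, and to 860.3 to 1148 CPM in back Merkel against 23233 to 36087 CPM in back IFE libraries. All 8 Merkel markers were called higher and all 5 basal markers lower in Merkel cells at both sites, so the labels of both cell types match these markers. Atoh1 is among the 8, and its difference follows from the sort by the Atoh1 reporter.

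Markers of other cell types bear on receptor genes, since neurons, glia and muscle express many of them. The 7 sensory neuron markers summed to 189 to 283 CPM in paw Merkel against 3.14 to 9.03 CPM in paw IFE libraries, and to 647 to 730.0 CPM in back Merkel against 1.79 to 3.78 CPM in back IFE libraries. Avil and Pou4f1 made up nearly all of these sums, while the nociceptor channel gene Scn10a, the neuronal filament gene Prph and the peptide gene Calca each stayed under 1 CPM in the 4 Merkel libraries. Among 9 skeletal muscle markers, the muscle determination genes Myog, Myod1 and Myf5 had 0 counts in all 8 libraries, and the list summed to 6.85 to 27.7 CPM in paw Merkel against 10.6 to 26.7 CPM in paw IFE libraries and 11.4 to 52.1 CPM in back Merkel against 1.25 to 4.92 CPM in back IFE libraries, mostly as Ttn. The 6 Schwann cell and glial markers summed to 21.5 to 80.7 CPM in paw Merkel against 82.3 to 94.2 CPM in paw IFE libraries, and to 75.1 to 85.3 CPM in back Merkel against 39.8 to 78.6 CPM in back IFE libraries, mostly as Erbb3. Melanocyte markers stayed at or below 7.07 CPM in every library. Fibroblast markers summed to 85.7 to 133 CPM in paw Merkel against 390.4 to 435 CPM in paw IFE libraries, and to 77.9 to 170.5 CPM in back Merkel against 92.6 to 411 CPM in back IFE libraries. Immune markers summed to 0.461 to 6.997 CPM in paw Merkel against 13.6 to 24.7 CPM in paw IFE libraries, and to 0.0761 to 0.293 CPM in back Merkel against 85.9 to 566 CPM in back IFE libraries. Among these 6 lists, the neuron list alone was higher in every Merkel than in every IFE library at both sites, and the fibroblast and immune sums were higher in IFE libraries in paw. The part of these cells in the receptor levels was not tested.

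Of the 80 subunit genes, 21 were detected in paw Merkel cells against 10 in paw IFE cells, and 26 in back Merkel cells against 8 in back IFE cells, where detected means at least 1 CPM in both libraries of the group. In all, 29 were detected in at least 1 group and 51 in none. A set of 12 was detected in Merkel cells of both sites and in neither IFE group, among them the glutamate receptor genes Gria4, Grik2, Grik3, Grin2c and Grm3 and the nicotinic genes Chrna2, Chrna3, Chrna5, Chrna10, Chrnb2 and Chrnb4. No subunit was detected in both IFE groups and in neither Merkel group, and 5 were detected in all 4 groups: Chrnb1, Gabbr1, Grin3a, Grm4 and Htr2b. How often these patterns of detection occur over all genes was not determined. Because each library pools many sorted cells, fewer cells carrying a transcript and less of that transcript per cell cannot be told apart.

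**Figure D1:**
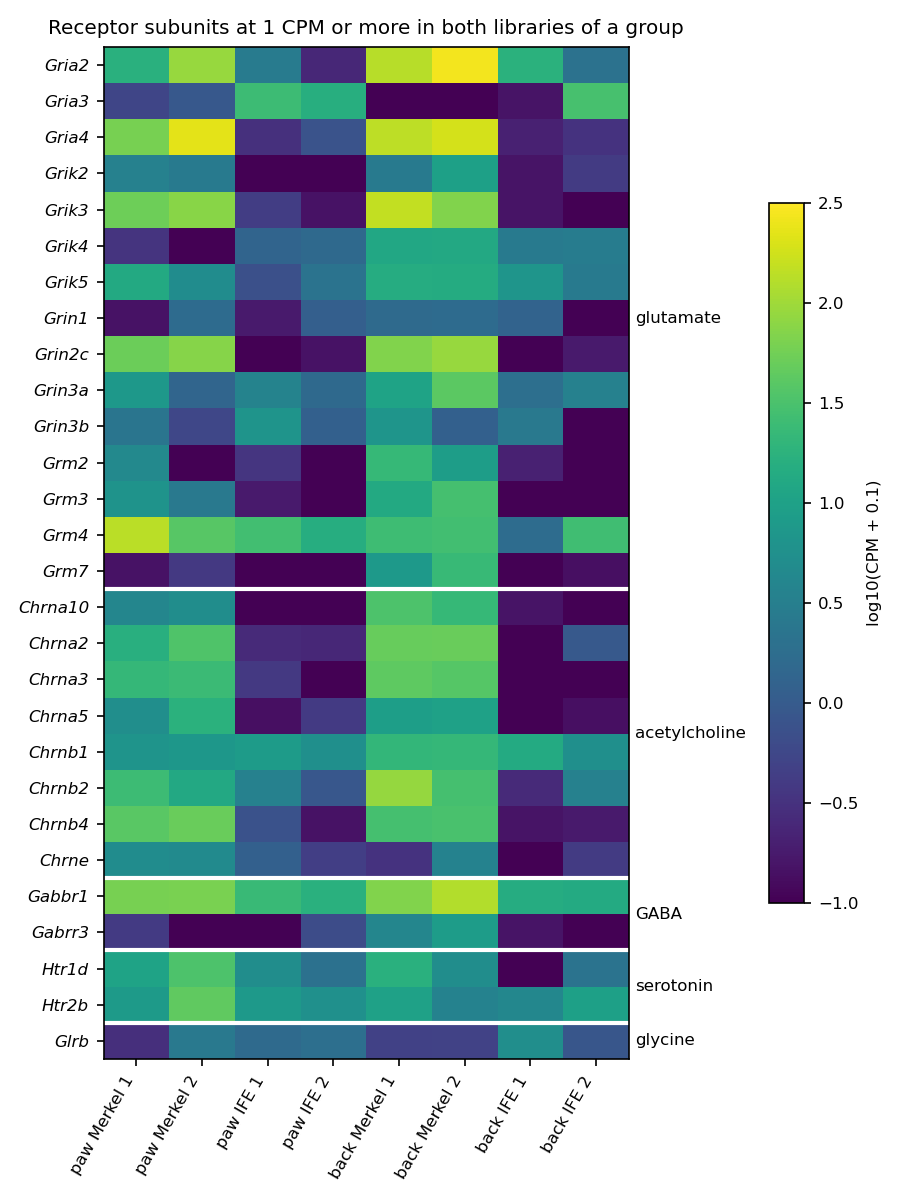
Levels of 28 of the 29 detected subunit genes (rows, grouped by transmitter) in the 8 libraries (columns), as the log10 of CPM plus 0.1 in colour, on a scale that runs darkest at the lowest level to yellow at the highest. For each of the 11 genes named above as detected in Merkel cells of both sites and in neither IFE group, every Merkel column is brighter than every IFE column. These genes were picked by detection on the same CPM values, so this contrast is largely built into the choice. The contrast is not equal between genes. Chrnb2 had 3.34 CPM in paw IFE library 1 and 3.397 CPM in back IFE library 2. In paw Merkel library 2, Grik2 had 2.67 CPM and Grm3 2.49 CPM.

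The undetected genes fell mainly in the GABA-A, serotonin and glycine families, with 17 of 19 GABA-A, 12 of 14 serotonin and 4 of 5 glycine receptor genes detected in no group. A count of 0 in all 8 libraries was found for 18 genes, among them the glutamate subunit Grin2a, the nicotinic subunits Chrna6, Chrnb3 and Chrnd, the GABA-A subunits Gabra3, Gabra6, Gabrd, Gabrg1 and Gabrg3, the glycine subunit Glra3, and the serotonin receptors Htr1a, Htr2c, Htr3b, Htr4 and Htr7. At this depth a level under the floor of 3 counts cannot be told from 0. A further 21 genes had some counts but too few for the test. These were Gria1, Grik1, Grin2b, Grm5 and Grm6 for glutamate; Chrna4, Chrna7, Chrna9 and Chrng for acetylcholine; Gabra2, Gabra4, Gabra5, Gabrb2, Gabrq and Gabrr1 for GABA; Glra2 for glycine; and Htr1b, Htr1f, Htr3a, Htr5a and Htr6 for serotonin. Apart from Gabra5, which had 18.5 CPM in back IFE library 1 and 0 counts in the other 7, none of these 21 passed 1.57 CPM in any library. The remaining 41 genes were tested, 17 for glutamate, 9 for acetylcholine, 8 for GABA, 4 for serotonin and 3 for glycine.

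In paw skin, 10 of the 41 tested subunit genes were called higher in Merkel than in IFE cells and 0 lower. A call was an adjusted p under 0.05 in edgeR's quasi-likelihood test (Benjamini-Hochberg over all 15151 genes tested). Of all genes tested, 6.21% were called, 4.28% higher and 1.93% lower. In back skin, 14 of the 41 were called higher and 1 lower, where 15.4% of all genes tested were called, 7.99% higher and 7.45% lower. The calls came from 3 transmitters: glutamate (5 higher in paw, 6 higher and 1 lower in back), acetylcholine (4 in paw, 6 in back) and GABA (1 in paw, 2 in back). No serotonin or glycine receptor gene was called by edgeR in either skin, with 0 at an unadjusted p under 0.05. By DESeq2, 1 of them was called, Htr1d higher in back, and by limma-trend 0. With 0 called lower in paw by edgeR, 1 (Gria3) had an unadjusted p under 0.05 there, and DESeq2 called 1 lower (Gria3) and limma-trend 0. Over the 41 genes that passed the filter, the median log2 fold change was 2.62 in paw, or 2.36 with genes at 0 set to their lower bound, and 3.40 in back on either reckoning, against -0.04 and -0.06 over all genes tested. These medians only describe the tested genes, because a gene that passed the filter through its level in Merkel cells alone had to differ. The paw and back comparisons contrast different libraries, but both come from 1 fit over all 8 libraries with a shared estimate of spread. Their calls are therefore not independent. All 10 subunits called in paw were among the 15 called in back. How often this holds over all genes was not determined.

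**Figure D2:**
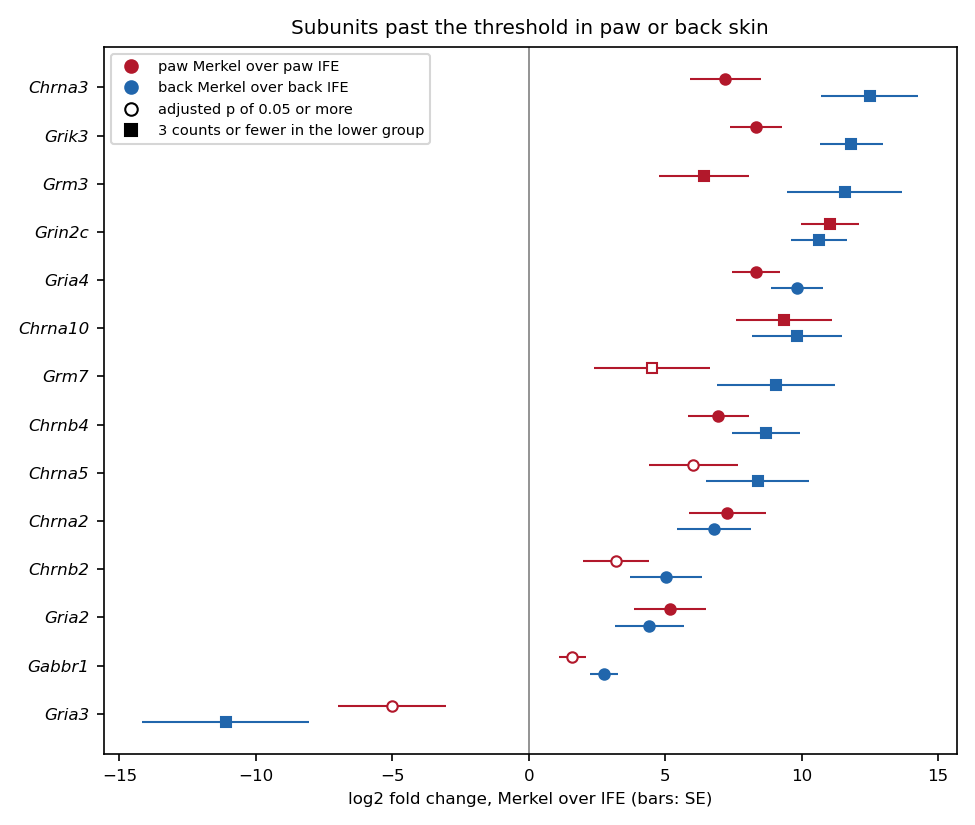
Log2 fold changes of Merkel over IFE cells (horizontal axis, bars are the SE of the fit) for 14 of the 15 subunits called in paw (red) or back (blue) skin. Open symbols missed an adjusted p of 0.05, and squares have 3 counts or fewer in the lower group, where the fitted value depends on the prior count. Gria3 is the only gene left of 0, and the remaining 13 lie to the right at both sites.

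Among the AMPA receptor subunits, which carry most fast excitatory transmission in the brain, Gria4 and Gria2 were higher in Merkel cells at both sites and Gria3 was lower in Merkel cells of back skin. Gria4 (chr9:4417896-4796234, minus strand, mm10) had 60.7 and 224 CPM in paw Merkel libraries, against 0.204 and 0.691 CPM in paw IFE libraries. In back skin it had 141 and 190.1 CPM in Merkel libraries, against 0.109 and 0.229 CPM in IFE libraries. Every Merkel library was far above every IFE library at both sites. This gave a log2 fold change of 8.32 (SE 0.87, adjusted p = 0.000188) in paw and 9.83 (SE 0.95, adjusted p = 7.3e-05) in back. Leaving out paw Merkel library 1 gave 8.96 in paw and leaving out the other 7.10. Leaving out paw IFE library 1 gave 7.67 and paw IFE library 2 9.40, and the back value was 10.48 without back IFE library 2. The call held in each of these.

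Gria2 (chr3:80681450-80802835, minus strand), the subunit that makes AMPA channels impermeable to calcium once its transcript is edited, had 16.8 and 90.6 CPM in paw Merkel libraries, against 2.77 and 0.148 CPM in paw IFE libraries. Its back skin levels were 131 and 278 CPM in Merkel libraries, against 17.3 and 1.98 CPM in IFE libraries. The groups did not overlap at either site, but libraries of a group spread widely, and the lower paw Merkel library stood just below the higher back IFE library. The log2 fold change was 5.17 (SE 1.33, adjusted p = 0.0434) in paw and 4.41 (SE 1.27, adjusted p = 0.0377) in back. In paw it lay between 3.50 without paw Merkel library 2 (adjusted p of 0.147) and 8.43 without paw IFE library 1. It was 5.92 without paw Merkel library 1. Leaving out paw IFE library 2 gave 4.27 (adjusted p of 0.0682), and the paw call was also lost with no scaling beyond library totals (adjusted p = 0.0558). In back it was 3.77 without back Merkel library 2 (adjusted p of 0.131), 3.56 without back IFE library 2 (adjusted p of 0.0798) and 6.68 without back IFE library 1. The Gria2 call at both sites therefore rests on particular libraries.

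Gria3 (chrX:41400854-41678601, plus strand) had the opposite arrangement. It had 0.431 and 0.8297 CPM in paw Merkel libraries, against 24.7 and 15.7 CPM in paw IFE libraries. The back values were 0 counts in both Merkel libraries, against 0.0543 and 30.6 CPM in IFE libraries. The 2 back IFE libraries differed, with a single count in library 1 and nearly all counts in library 2. Set against 3 counts for the whole group as the floor, Gria3 was at least 119-fold lower in back Merkel than in back IFE cells (adjusted p = 0.0340), and in paw its log2 fold change of -5.01 (SE 1.98) missed the threshold (adjusted p = 0.179). The back call was lost without back Merkel library 1 (adjusted p of 0.112), without back Merkel library 2 (adjusted p of 0.122) and without back IFE library 2 (fitted log2 fold change -3.06, adjusted p of 0.524), and the fitted value was -12.11 without back IFE library 1. It was also lost with limma-trend (adjusted p = 0.165). Gria1, the remaining AMPA subunit, reached 1.57 CPM in paw Merkel library 2 and at most 0.195 CPM in any other library.

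Of the kainate receptor subunits, which form slower glutamate channels, Grik3 stood out. Grik3 (chr4:125490700-125714173, plus strand) had 53.4 and 76.4 CPM in paw Merkel libraries, against 0.326 and 0.0493 CPM in paw IFE libraries. Back skin showed 149 and 68.1 CPM in Merkel libraries, against 0.0543 and 0 CPM in IFE libraries, where library 1 held a single count. No IFE library came near a Merkel library. The paw log2 fold change was 8.33 (SE 0.95, adjusted p = 0.000347), and 10.16 without paw IFE library 1 or 7.61 without paw IFE library 2. In back, with 1 count in IFE cells, the ratio of CPM was 5062 (95% interval 908 to 200006) for counting error only, adjusted p = 7.7e-05, and the fitted log2 value ran between 10.78 without back IFE library 2 and 13.93 without back IFE library 1, with 11.13 without back Merkel library 1. The call held without any 1 library at both sites.

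The remaining kainate subunits were lower and, like every gene below that no test called and that is not among the 3 highest of its transmitter, were named after their values were seen. Grik2, which like Grik1 and Grik3 can form channels alone, was detected only in Merkel cells, at 3.35 and 2.67 CPM in paw Merkel libraries, against 0 counts in paw IFE libraries. It had 2.66 and 9.57 CPM in back Merkel libraries, against 0.0543 and 0.305 CPM in back IFE libraries. The groups did not overlap, yet edgeR's test missed the threshold in paw (adjusted p = 0.0675) and back (adjusted p = 0.116). DESeq2 called Grik2 higher at both sites, limma-trend in back, and edgeR with no filter in paw. Grik4 and Grik5, the high-affinity subunits that need Grik1, Grik2 or Grik3 as partners, were found in both cell types. Grik5 had 13.2 and 4.98 CPM in paw Merkel libraries, against 0.611 and 2.07 CPM in paw IFE libraries, and 14.5 and 14.2 CPM in back Merkel libraries, against 6.57 and 2.56 CPM in back IFE libraries. Grik5 missed the threshold at both sites (adjusted p = 0.208 in paw and 0.351 in back). Grik4 had 0.2396 and 0 CPM in paw Merkel libraries, against 1.22 and 1.48 CPM in paw IFE libraries, and 12.3 and 12.7 CPM in back Merkel libraries, against 2.66 and 2.82 CPM in back IFE libraries. It was thus highest in back Merkel cells and lowest in paw Merkel cells. Grik1 had at most 0.144 CPM in any library.

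Among the NMDA receptor subunits, Grin2c was the highest in every Merkel library, while the obligatory Grin1 was close to the limit of detection in all groups. Grin2c (chr11:115249169-115267243, minus strand), which encodes a glutamate-binding subunit best known from the cerebellum, had 51.4 and 73.9 CPM in paw Merkel libraries, against 0 and 0.0493 CPM in paw IFE libraries. Levels in back were 68.1 and 91.6 CPM in Merkel libraries, against 0 and 0.0763 CPM in IFE libraries. These IFE values stand for 1 count over both paw libraries and 2 counts over both back libraries. The ratio of CPM was 2648 (95% interval 475 to 104642) in paw, adjusted p = 0.000108, and 1749 (95% interval 484 to 14455) in back, adjusted p = 7.4e-05. The fitted paw log2 value was 10.11 without paw IFE library 1, or 13.12 without paw IFE library 2, and the fitted back value 9.90 without back IFE library 1 and 13.40 without back IFE library 2, and the call held in each.

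Grin1 had 1 and 17 counts in paw Merkel libraries, against 2 and 21 counts in paw IFE libraries. For back skin the values were 20 and 16 counts in Merkel libraries, against 22 and 0 counts in IFE libraries. In CPM the highest Grin1 library was paw Merkel library 2 at 1.57, the groups overlapped in paw, and neither comparison passed the test (adjusted p = 0.938 in paw and 0.756 in back). The deposited FPKM (the authors' fragment level scaled to transcript length and library size) differed from the counts here: back Merkel library 1 was given 3.98 FPKM on 20 counts, and back Merkel library 2 0.842 FPKM on 16. By FPKM, the 4 libraries of Merkel cells had 19.9 and 37.5 FPKM of Grin2c in paw and 26.6 and 41.5 FPKM in back, against 0 and 0.545 FPKM of Grin1 in paw and 3.98 and 0.842 FPKM in back. Grin2c was above Grin1 in each of these libraries. Grin2a had 0 counts everywhere, Grin2b at most 0.3799 CPM, and Grin2d 0.719 and 0 CPM in paw Merkel against 1.71 and 0.7402 CPM in paw IFE libraries and 0.152 and 0.195 CPM in back Merkel against 2.06 and 0.572 CPM in back IFE libraries. Of the glycine-binding Grin3 subunits, Grin3a had 7.29 and 1.29 CPM in paw Merkel against 3.54 and 1.48 CPM in paw IFE libraries. In back skin Grin3a had 10.7 and 41.9 CPM in Merkel against 1.79 and 3.36 CPM in IFE libraries (adjusted p = 0.0931). The groups overlapped for Grin3a in paw but not in back. Grin3b had 2.205 and 0.461 CPM in paw Merkel against 6.397 and 1.09 CPM in paw IFE libraries and 6.54 and 1.07 CPM in back Merkel against 2.497 and 0 CPM in back IFE libraries, and shares 32.1% of its exonic bases with Tmem259.

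**Figure D3:**
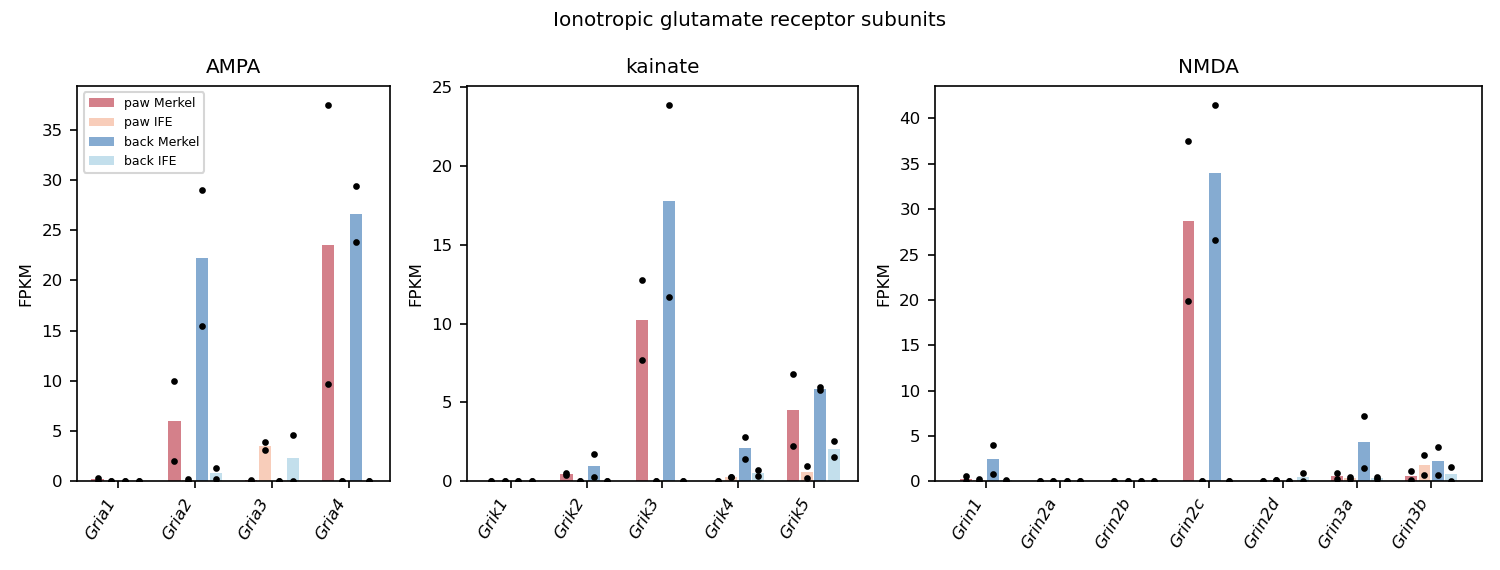
Deposited FPKM (vertical axes, from 0) of the AMPA, kainate and NMDA subunits. Bars are the mean of the 2 libraries of a group and points the libraries. The bars of Gria2, Gria4, Grik3 and Grin2c are higher in each Merkel group than in the IFE group of the same site, Gria3 is seen in IFE libraries, and Grin1 is low beside Grin2c.

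The start regions of Grin2c, Gria4 and Grik3 are shown because, of the glutamate subunits called at both sites, these 3 had the smallest adjusted p. Each window runs over 300 bases, 250 before and 50 after the start in RefSeq on GRCm38.p6, 5′ to 3′ on the gene's strand, with capitals marking GC boxes, the letters GGGCGG on either strand. Windows were found for 59 of the 80 genes (69 windows, since some genes have several starts).
Grin2c: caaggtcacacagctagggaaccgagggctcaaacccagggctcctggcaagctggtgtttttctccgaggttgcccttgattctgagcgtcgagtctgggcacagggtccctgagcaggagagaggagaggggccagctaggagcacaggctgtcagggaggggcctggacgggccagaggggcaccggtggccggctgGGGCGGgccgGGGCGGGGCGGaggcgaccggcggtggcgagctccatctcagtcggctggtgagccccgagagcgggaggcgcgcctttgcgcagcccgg
Gria4: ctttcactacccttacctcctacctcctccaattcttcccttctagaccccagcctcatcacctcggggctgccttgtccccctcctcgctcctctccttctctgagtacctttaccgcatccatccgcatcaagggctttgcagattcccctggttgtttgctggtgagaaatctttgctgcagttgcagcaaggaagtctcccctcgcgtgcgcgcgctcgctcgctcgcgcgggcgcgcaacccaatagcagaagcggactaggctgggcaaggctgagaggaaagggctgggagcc
Grik3: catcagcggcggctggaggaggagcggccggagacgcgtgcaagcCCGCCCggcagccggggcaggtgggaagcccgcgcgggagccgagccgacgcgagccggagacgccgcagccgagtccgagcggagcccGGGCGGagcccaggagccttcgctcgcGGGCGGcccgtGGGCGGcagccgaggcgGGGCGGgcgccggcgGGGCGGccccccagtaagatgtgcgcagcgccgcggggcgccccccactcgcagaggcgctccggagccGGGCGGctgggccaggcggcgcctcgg
They lie at chr11:115267194-115267493, minus strand; chr9:4796185-4796484, minus strand; and chr4:125490446-125490745, plus strand. Overlapping matches counted separately, the Grin2c window holds 3 GC boxes, the Grik3 window 7 and the Gria4 window 0. The letters occur in 35.7% of 32851 windows of all genes and in 49.3% (34) of the 69 windows of receptor subunit genes. The E-box CAGCTG, the same on both strands, is in none of the 3 windows, while 16.3% of all windows and 13.04% (9) of the subunit windows hold it. Such matches describe the letters only.

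The metabotropic glutamate receptor genes detected in Merkel cells, Grm2, Grm3, Grm4 and Grm7, all encode receptors that inhibit adenylyl cyclase. Grm3 (chr5:9485541-9725170, minus strand) had 6.09 and 2.49 CPM in paw Merkel libraries, against 0.0815 and 0 CPM in paw IFE libraries. In back skin Grm3 had 13.4 and 29.1 CPM in Merkel libraries, against 0 counts in IFE libraries. With 2 counts in paw IFE cells the ratio was 109 (95% interval 29.6 to 906), adjusted p = 0.0473, and in back Grm3 was at least 316-fold higher in Merkel cells, adjusted p = 0.00484. Both Merkel groups lay above both IFE groups, but the paw call was close to the threshold. It was lost without paw IFE library 1 (fitted log2 value 9.21, adjusted p of 0.104), paw IFE library 2 (5.60, adjusted p of 0.258), back Merkel library 1 (adjusted p of 0.0596) and back Merkel library 2 (adjusted p of 0.109), was 5.62 without paw Merkel library 1, and was lost with no scaling beyond library totals (adjusted p = 0.059).

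Grm7 (chr6:110645581-111567230, plus strand), a presynaptic receptor of low glutamate affinity, was found almost only in back Merkel cells. It had 7.61 and 22.5 CPM in back Merkel libraries, against 0 and 0.0382 CPM in back IFE libraries, a ratio of 629.9 (95% interval 112 to 24953) on 1 IFE count, adjusted p = 0.0188. In paw it had 0.0479 and 0.277 CPM in Merkel libraries, against 0 counts in IFE libraries, which did not pass (adjusted p = 0.261). Both back Merkel libraries exceeded every other library. The back call was lost without back Merkel library 2 (fitted log2 value 8.12, adjusted p of 0.167), back IFE library 1 (8.38, adjusted p of 0.0951) and back IFE library 2 (10.99, adjusted p of 0.0593). Grm2, the close relative of Grm3, had 4.41 and 0 CPM in paw Merkel libraries, against 0.244 and 0 CPM in paw IFE libraries, and 21.8 and 8.695 CPM in back Merkel libraries, against 0.109 and 0 CPM in back IFE libraries (adjusted p = 0.0648 in back).

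Grm4 (chr17:27422387-27521403, minus strand) had the highest mean FPKM of all glutamate receptor genes and was detected in all 4 groups. It had 61.1 and 23.1 FPKM in paw Merkel libraries, against 11.2 and 5.76 FPKM in paw IFE libraries. In back skin it had 10.9 and 13.9 FPKM in Merkel libraries, against 0.722 and 12.3 FPKM in IFE libraries. In CPM these were 138 and 39.1 in paw Merkel against 27.5 and 15.2 in paw IFE libraries, and 25.6 and 27.4 in back Merkel against 1.63 and 26.2 in back IFE libraries. The Merkel libraries were higher in paw without overlap, and the groups overlapped in back. Grm4 passed in neither (log2 fold change 2.05, adjusted p = 0.273 in paw and 0.92, adjusted p = 0.564 in back). Grm5, a receptor coupled to phospholipase C, had at most 0.0922 CPM in any library, Grm6 at most 0.0543 CPM, and Grm8 at most 1.73 CPM.

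Summed over all 24 glutamate genes, the deposited levels were 114 and 125 FPKM in paw Merkel libraries, against 19.9 and 11.4 FPKM in paw IFE libraries, and 136 and 161 FPKM in back Merkel libraries, against 8.17 and 19.7 FPKM in back IFE libraries. The Merkel libraries were above all IFE libraries. Gria2, Gria4, Grik3, Grin2c and Grm4 were picked after their levels were seen. All of them except Grm4 were called higher in Merkel cells at both sites, so a larger Merkel share was partly built into the choice. Together, Grm4 included, these genes held 88.2% and 96.3% of this sum in paw Merkel libraries, against 57.5% and 51.0% in paw IFE libraries. They held 74.2% and 78.1% in back Merkel libraries, against 25.0% and 64.0% in back IFE libraries.

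Nicotinic acetylcholine receptors, ion channels of 5-subunit rings, were represented in Merkel cells by 6 genes of the neuronal type. Chrna3, Chrna5 and Chrnb4 lie side by side on chromosome 9, within 67900 bases, Chrna5 on the plus strand (chr9:54980880-55007779) and Chrna3 (chr9:55010111-55026562) and Chrnb4 (chr9:55028154-55048779) on the minus strand, with 2331 bases between the first pair and 1591 between the second. These 3 form the ganglionic receptor of the autonomic nervous system, in which Chrna3 and Chrnb4 carry the binding site and Chrna5 is an accessory subunit. Chrnb4, the highest nicotinic gene by mean FPKM, had 39.8 and 50.3 CPM in paw Merkel libraries, against 0.652 and 0.0493 CPM in paw IFE libraries. In back skin Chrnb4 had 29.4 and 31.5 CPM in Merkel libraries, against 0.0543 and 0.0763 CPM in IFE libraries. The log2 fold change in paw was 6.95 (SE 1.11, adjusted p = 0.00334), 9.64 without paw IFE library 1, or 6.10 without paw IFE library 2, and in back, on 3 IFE counts, the ratio was 451 (95% interval 154 to 2193), adjusted p = 0.000906. All 4 Merkel libraries lay between 29.4 and 50.3 CPM and all IFE libraries under 1 CPM.

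Chrna3 had 21.2 and 24.4 CPM in paw Merkel libraries, against 0.285 and 0 CPM in paw IFE libraries. Its back skin levels were 42.8 and 37.3 CPM in Merkel libraries, against 0 counts in IFE libraries. The paw log2 fold change was 7.20 (SE 1.31, adjusted p = 0.00955), 11.61 without paw IFE library 1, or 6.29 without paw IFE library 2. In back Chrna3 was at least 596-fold higher in Merkel cells, adjusted p = 0.00122. For Chrna5 too, every Merkel library lay above every IFE library. It had 5.32 and 17.3 CPM in paw Merkel libraries, against 0.0407 and 0.296 CPM in paw IFE libraries, and just missed the threshold there (log2 fold change 6.04, SE 1.64, adjusted p = 0.0534). In back it had 9.05 and 9.87 CPM in Merkel libraries, against 0 and 0.0382 CPM in IFE libraries, a ratio of 419.9 (95% interval 74.6 to 16660.0) on 1 IFE count, adjusted p = 0.0120. The back call was lost without back IFE library 1 (fitted log2 value 7.71, adjusted p of 0.0677), and the fitted value was 10.32 without back IFE library 2.

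The start regions of Chrna3 and Chrnb4 are shown because these neighbours were called together at both sites, with GC boxes and the E-box in capitals, from the same RefSeq windows.
Chrna3: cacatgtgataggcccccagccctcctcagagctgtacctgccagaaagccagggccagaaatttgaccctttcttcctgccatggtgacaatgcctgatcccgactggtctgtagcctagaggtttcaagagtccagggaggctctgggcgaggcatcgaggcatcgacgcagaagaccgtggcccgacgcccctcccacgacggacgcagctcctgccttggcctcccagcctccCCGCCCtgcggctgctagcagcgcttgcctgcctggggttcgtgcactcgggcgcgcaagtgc
Chrnb4: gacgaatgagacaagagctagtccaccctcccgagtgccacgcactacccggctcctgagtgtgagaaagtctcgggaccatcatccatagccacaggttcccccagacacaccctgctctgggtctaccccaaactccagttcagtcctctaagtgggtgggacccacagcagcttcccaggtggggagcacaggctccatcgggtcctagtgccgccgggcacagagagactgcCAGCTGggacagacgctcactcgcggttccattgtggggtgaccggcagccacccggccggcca
They lie at chr9:55026513-55026812, minus strand, and chr9:55048495-55048794, minus strand. The Chrna3 window holds 1 GC box and no CAGCTG, and the Chrnb4 window holds 1 CAGCTG and no GC box.

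Chrna2 (chr14:66135039-66152948, plus strand), a further subunit that binds acetylcholine, had 16.2 and 34.5 CPM in paw Merkel libraries, against 0.163 and 0.148 CPM in paw IFE libraries. The back values were 48.2 and 49.7 CPM in Merkel libraries, against 0 and 0.8396 CPM in IFE libraries. No IFE library reached 1 CPM. The log2 fold change was 7.28 (SE 1.405, adjusted p = 0.0106) in paw and 6.79 (SE 1.34, adjusted p = 0.00605) in back. The paw value was 6.64 without paw Merkel library 2, and the back value 5.85 without back IFE library 1 and 12.69 without back IFE library 2, with the call held in each.

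Chrna10 (chr7:102111266-102116828, minus strand), which in cochlear hair cells pairs with Chrna9, had 3.88 and 5.16 CPM in paw Merkel libraries, against 0 counts in paw IFE libraries. Back skin showed 33.6 and 22.1 CPM in Merkel libraries, against 0.0543 and 0 CPM in IFE libraries. Its partner Chrna9 had 1.04 CPM in paw IFE library 2 and 0 counts in the other 7 libraries, including all Merkel libraries. Chrna10 was at least 67.5-fold higher in paw Merkel cells (adjusted p = 0.0119), a call lost on leaving out either paw IFE library (adjusted p of 0.0644 without library 1 and 0.0634 without library 2). In back the ratio was 1275 (95% interval 228 to 50434) on 1 IFE count, adjusted p = 0.00325, with a fitted log2 value of 11.97 without back IFE library 1 and 8.82 without back IFE library 2. Chrna10 shares 39.0% of its exonic bases with Art1 on the opposite strand, and the strand setting of the counting is not given in the sources used here, so reads of the 2 genes cannot be told apart where they overlap. Art1 itself had 1 count in back Merkel library 1 and 0 in the other 7 libraries.

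Chrnb2 (chr3:89746195-89764632, minus strand), the common beta subunit of brain nicotinic receptors, had 25.4 and 13 CPM in paw Merkel libraries, against 3.34 and 0.7896 CPM in paw IFE libraries. Levels in back were 88.2 and 29.3 CPM in Merkel libraries, against 0.163 and 3.397 CPM in IFE libraries. The groups did not overlap at either site. By edgeR only back passed, with a log2 fold change of 5.03 (SE 1.32, adjusted p = 0.0253), and the paw value was 3.21 (SE 1.21, adjusted p = 0.157). DESeq2 called Chrnb2 in paw too, as did edgeR with no filter and without either back IFE library. The back value was 4.01 without back Merkel library 1 (adjusted p of 0.114), 4.11 without back IFE library 1 and 8.43 without back IFE library 2. Chrnb2 shares 16.3% of its exonic bases with Adar, which had between 13.4 and 46.6 CPM in the 8 libraries. The paw minus back difference for Chrnb2 was not called (interaction adjusted p = 0.803).

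**Figure D4:**
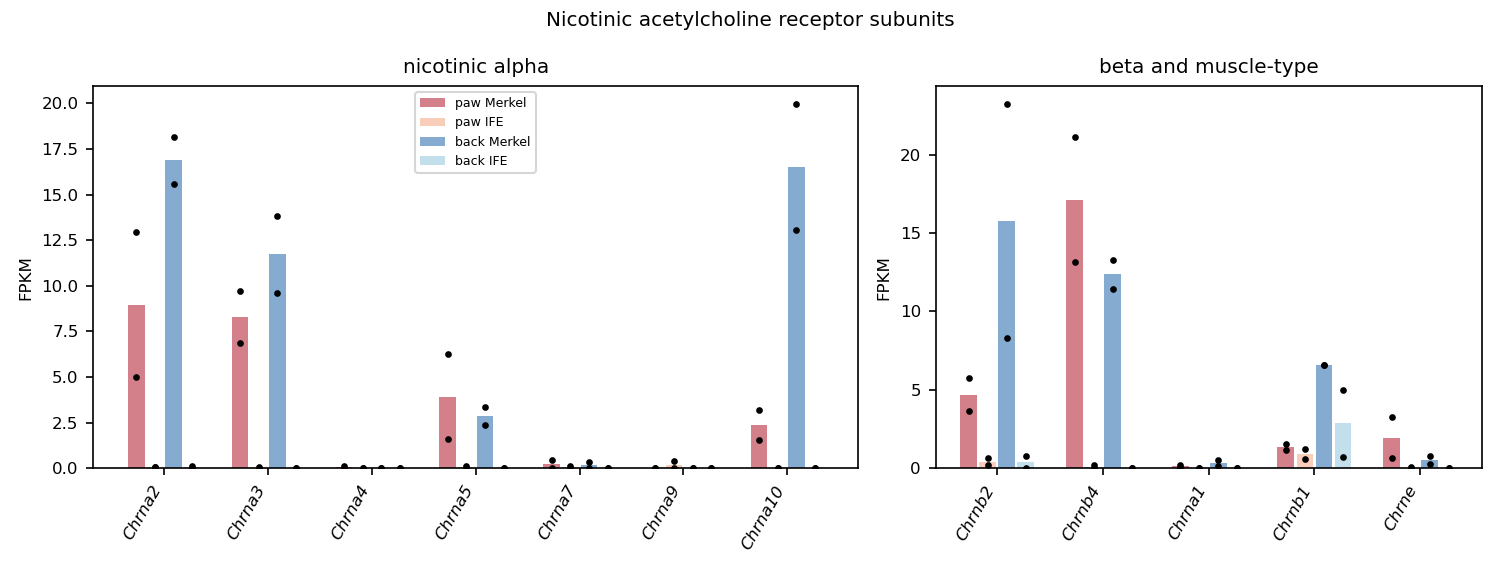
Deposited FPKM (vertical axes, from 0) of nicotinic subunits, with neuronal alpha subunits on the left and beta and muscle-type subunits on the right. Bars are group means of 2 libraries and points the libraries. Chrna2, Chrna3, Chrna5, Chrna10, Chrnb2 and Chrnb4 have higher bars in each Merkel group than in the IFE group of the same site, and Chrnb1 is found in all 4 groups.

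The brain subunits Chrna4 and Chrna7 were at most 0.369 and 0.719 CPM in any library. Of the muscle receptor subunits, Chrnb1 was detected in all 4 groups, at 6.42 and 7.01 CPM in paw Merkel against 8.35 and 5.48 CPM in paw IFE libraries and 20.5 and 21.4 CPM in back Merkel against 13.8 and 5.38 CPM in back IFE libraries. It overlapped in paw and was called at neither site (adjusted p = 0.987 in paw and 0.416 in back). Chrna1, the binding subunit, had 0.815 and 0.369 CPM in paw Merkel and 0.456 and 1.76 CPM in back Merkel libraries, against 0 counts in all IFE libraries. Chrne, the adult muscle subunit, had 4.94 and 4.702 CPM in paw Merkel against 1.1 and 0.345 CPM in paw IFE libraries, and 0.228 and 3.42 CPM in back Merkel against 0 and 0.305 CPM in back IFE libraries. Neither passed the test at either site (Chrna1 adjusted p = 0.252 in paw and 0.143 in back, Chrne adjusted p = 0.499 in paw and 0.303 in back). Chrnd had 0 counts everywhere, and Chrng, the fetal subunit, at most 0.489 CPM.

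Over all 16 nicotinic genes the summed level was 39.1 and 59.4 FPKM in paw Merkel libraries, against 2.39 and 1.52 FPKM in paw IFE libraries, and 94.7 and 72.7 FPKM in back Merkel libraries, against 5.10 and 1.73 FPKM in back IFE libraries. The 6 neuronal genes above were picked after their levels were seen. They are the nicotinic genes called higher in back Merkel cells, so a larger Merkel share was built into the choice. They held 86.8% and 95.8% of the summed level in paw Merkel libraries, against 42.9% and 23.8% in paw IFE libraries. They held 92.3% and 89.1% in back Merkel libraries, against 1.68% and 54.96% in back IFE libraries. The order of the 6 by FPKM differed between sites. In paw Merkel libraries Chrnb4 was highest, at 13.1 and 21.1 FPKM, and Chrna10 lowest, at 1.53 and 3.203 FPKM. In back Merkel libraries Chrna10 had 19.95 and 13.1 FPKM, Chrna2 15.6 and 18.2, Chrnb2 23.2 and 8.33, Chrnb4 11.4 and 13.3 and Chrna3 13.8 and 9.61, ranges that run into each other, and Chrna5 was lowest at 3.36 and 2.37 FPKM.

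Gabbr1 (chr17:37045966-37075067, plus strand), the GABA-binding subunit of the GABA-B receptor, was the highest GABA receptor gene by mean FPKM and present in all 4 groups. It had 59.8 and 61.7 CPM in paw Merkel libraries, against 23.7 and 16.5 CPM in paw IFE libraries. For back skin the values were 67.9 and 127 CPM in Merkel libraries, against 14.6 and 13.9 CPM in IFE libraries. Merkel libraries were higher without overlap at both sites, by a log2 fold change of 2.77 (SE 0.51, adjusted p = 0.00412) in back, which was the call, and 1.59 (SE 0.49, adjusted p = 0.0828) in paw, which missed it. Leaving out any 1 library kept the back call, with values between 2.25 and 3.13. Gabbr2, the signalling subunit of the receptor, was far lower and uneven between libraries, with 3.45 and 0 CPM in paw Merkel against 0.0815 and 0.0987 CPM in paw IFE libraries and 3.88 and 0.293 CPM in back Merkel against 0.109 and 0 CPM in back IFE libraries. Per length, Gabbr1 had 15.3 and 19.3 FPKM in paw Merkel and 16.02 and 44.03 FPKM in back Merkel libraries, where Gabbr2 had 1.45 and 0 FPKM in paw Merkel and 1.79 and 0.0488 FPKM in back Merkel libraries.

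Several GABA-A subunit genes, which encode ion channels opened by GABA, were low. Gabra5 had 341 counts in back IFE library 1 and 0 counts in the other 7, Gabrd had 0 counts in all 8 libraries, and Gabrb1 reached at most 1.597 and Gabrb2 at most 1.57 CPM. Gabre, the epsilon subunit, had 1.26 and 0 FPKM in paw Merkel against 1.13 and 0.137 FPKM in paw IFE libraries and 0 FPKM in both back Merkel libraries against 2.06 and 0.214 FPKM in back IFE libraries. Its groups overlapped in CPM at both sites. Of the rho subunits, which form channels on their own, Gabrr3 had 3.96 and 8.5 CPM in back Merkel against 0.0543 and 0 CPM in back IFE libraries (adjusted p = 0.102) and 0.288 and 0 CPM in paw Merkel against 0 and 0.543 CPM in paw IFE libraries. Gabrr2 had 12.8 CPM in paw Merkel library 2 and at most 0.5704 CPM in any other library.

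Glycine receptor genes were low in every group. Glra1, the adult alpha subunit, had 0.288 and 1.198 CPM in paw Merkel against 4.69 and 0.938 CPM in paw IFE libraries and 1.45 and 0 CPM in back Merkel against 0 and 0.0382 CPM in back IFE libraries. Glrb, the beta subunit that anchors the channel at synapses, had 0.192 and 2.49 CPM in paw Merkel against 1.51 and 1.78 CPM in paw IFE libraries and 0.3803 and 0.391 CPM in back Merkel against 5.32 and 0.763 CPM in back IFE libraries. Glra4 had 0.335 and 0.738 CPM in paw Merkel against 0.693 and 0.691 CPM in paw IFE libraries and 0.0761 and 6.55 CPM in back Merkel against 0 and 1.91 CPM in back IFE libraries. The groups overlapped for all 3 genes at both sites, except that Glrb was lower in both back Merkel than in both back IFE libraries, and the adjusted p values in back were 0.259 for Glra1, 0.348 for Glrb and 0.659 for Glra4. The summed level of all 5 glycine genes did not pass 3.05 FPKM in any library, and the paw IFE group, through Glrb, was the only group in which a glycine gene was detected.

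Serotonin receptor genes were represented by Htr2b and Htr1d. Htr2b, a receptor coupled to phospholipase C, was detected in all 4 groups, with 7.91 and 44.3 CPM in paw Merkel libraries, against 7.58 and 5.68 CPM in paw IFE libraries. In back skin it had 9.96 and 3.52 CPM in Merkel libraries, against 4.12 and 9.81 CPM in IFE libraries. Paw Merkel library 2 stood apart from the other 7, and the difference passed in neither skin (log2 fold change 1.98, adjusted p = 0.321 in paw and -0.05, adjusted p = 0.987 in back). Htr2b shares 11.8% of its exonic bases with Psmd1, which was above 200 CPM in every library. Htr1d, an inhibitory receptor known from sensory neurons, had 10.6 and 33.3 CPM in paw Merkel libraries, against 5.17 and 1.92 CPM in paw IFE libraries. In back skin Htr1d had 16.6 and 5.18 CPM in Merkel libraries, against 0 and 2.02 CPM in IFE libraries. The Merkel libraries were higher without overlap at both sites, but with log2 fold changes of 2.62 (SE 1.55, adjusted p = 0.369) in paw and 3.40 (SE 1.61, adjusted p = 0.179) in back the test was not passed.

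By length, Htr2b had 2.996 and 24.6 FPKM in paw Merkel against 2.78 and 1.55 FPKM in paw IFE libraries, and 2.82 and 0.898 FPKM in back Merkel against 0.831 and 2.95 FPKM in back IFE libraries. Htr1d had 4.03 and 16.8 FPKM in paw Merkel against 2.29 and 0.866 FPKM in paw IFE libraries, and 8.53 and 2.86 FPKM in back Merkel against 0 and 0.856 FPKM in back IFE libraries. Both were highest in paw Merkel library 2. Htr1b, next by mean FPKM, had 3.35 FPKM in paw IFE library 2 on 20 counts, 0.663 FPKM in back Merkel library 1 and 0.0793 FPKM in paw Merkel library 1, and at most 1.88e-06 FPKM in the other 5. Htr3a, the subunit without which no serotonin-gated ion channel forms, had at most 0.383 CPM, and its partner Htr3b 0 counts. The other tested members, Htr2a and Htr5b, had at most 0.7402 and 1.58 CPM in any library.

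**Figure D5:**
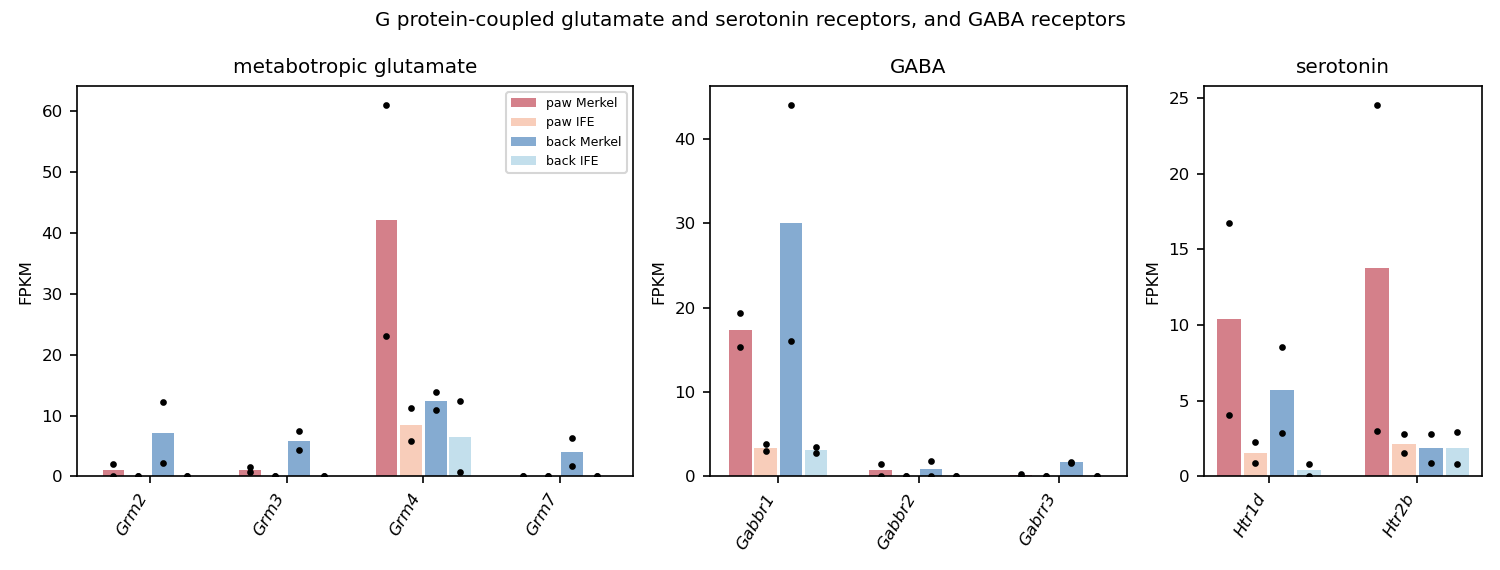
Deposited FPKM (vertical axes, from 0) of 4 metabotropic glutamate receptor genes, 3 GABA receptor genes and 2 serotonin receptor genes. Bars are group means of 2 libraries and points the libraries. Gabbr1 is higher in both Merkel groups, Grm7 in back Merkel libraries, and a single paw Merkel library lifts Htr2b.

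The same genes were compared between the sites within each cell type. Between paw and back Merkel cells, edgeR's quasi-likelihood test called 0 of the 41 tested subunits. An unadjusted p under 0.05 was found for 4 of the 41, against 1550 of all 15151 genes tested. Calls over all genes tested came to 0.185% (28), with 0.178% higher and 0.0066% lower in paw. Among the 41 subunits, DESeq2 called 2, Grik4 and Grm7, both lower in paw Merkel cells, and limma-trend called 0. The edgeR log2 fold change of paw over back Merkel cells was -6.48 (SE 1.74, adjusted p = 0.213) for Grik4 and -6.57 (SE 1.92, adjusted p = 0.267) for Grm7. Chrna10, at 3.88 and 5.16 CPM in paw Merkel and 33.6 and 22.1 CPM in back Merkel libraries, had -2.62 (SE 1.14, adjusted p = 0.472), and Gabrr2, whose paw counts come from library 2, had an adjusted p of 0.384. None of the 41 was called between paw and back IFE cells, where 4 had an unadjusted p under 0.05 and 0% of all genes tested were called by edgeR, with 643 genes at an unadjusted p under 0.05. DESeq2 and limma-trend called 0 subunits there.

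Whether the Merkel over IFE difference itself differed between paw and back was tested as an interaction. It called 0 of the 41 subunits with edgeR (0% of all genes tested, with 1365 at an unadjusted p under 0.05), and DESeq2 and limma-trend also called 0. Only 4 subunits had an unadjusted p under 0.05. For Grik4 the paw minus back difference in log2 fold change was -5.47 (SE 2.08, adjusted p = 0.5097), and the adjusted p was 0.528 for Chrna3, 0.531 for Grik3 and 0.537 for Gabrr3. Those last 3 genes had 0 or 1 count in back IFE cells, so the size of their difference between sites is not defined by the counts. The subunits called in back and not in paw are not shown to differ between the sites, with an interaction adjusted p of 0.797 for Chrna5, 0.803 for Chrnb2, 0.662 for Gabbr1 and 0.678 for Gria3. For Grm7, with 0 counts in paw IFE and 1 in back IFE cells, the interaction had an SE of 33.5 on the log2 scale and could not have shown a difference.

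Proteins that traffic, anchor or modulate these receptors were examined as lists chosen with earlier results of these data known. Of 26 partners of glutamate receptors, 20 were tested, and edgeR called the same 3 higher in Merkel cells at each site, Gsg1l, Cacng5 and Homer2. Of all genes, 6.21% were called in either direction in paw (4.28% higher) and 15.4% in back (7.99% higher). The back count is thus near the share over all genes in either direction. The edgeR test called 0 partners lower, with 1 lower at an unadjusted p under 0.05 in paw and 0 in back. DESeq2 called 5 higher and 1 lower (Grip1) in paw and 6 higher and 0 lower in back, and limma-trend 4 and 5 higher and 0 lower. The shares over all genes given here and for the later lists are edgeR's. DESeq2 called more of all genes than edgeR at both sites, as given below, and limma-trend totals are not reported here. Counts from these other tools therefore cannot be read against those shares. Gsg1l, an auxiliary subunit of AMPA receptors, had 115 and 143 CPM in paw Merkel libraries, against 1.06 and 0.247 CPM in paw IFE libraries. Its back skin levels were 126 and 144 CPM in Merkel libraries, against 0.217 and 0.191 CPM in IFE libraries. The log2 fold change was 7.59 (SE 0.70, adjusted p = 8.0e-05) in paw, with 6.92 without paw IFE library 2, or 8.99 without paw IFE library 1, and 9.33 (SE 0.78, adjusted p = 2.5e-05) in back. Cacng5, another AMPA receptor auxiliary subunit, had 31.3 and 20.9 CPM in paw Merkel libraries, against 0.0407 and 0.197 CPM in paw IFE libraries. It had 52.8 and 47.2 CPM in back Merkel libraries, against 0 counts in back IFE libraries. The groups stood far apart for both auxiliary subunits. The paw log2 fold change of Cacng5 was 7.74 (SE 1.05, adjusted p = 0.00162), with 6.997 without paw IFE library 1, or 9.10 without paw IFE library 2, and in back it was at least 744-fold higher in Merkel cells (adjusted p = 0.000254). Homer2, a scaffold that binds metabotropic glutamate receptors, had 203 and 357 CPM in paw Merkel libraries, against 17.7 and 47.4 CPM in paw IFE libraries, and 539 and 564 CPM in back Merkel libraries, against 14.4 and 25.6 CPM in back IFE libraries. Its log2 fold change was 3.11 (SE 0.52, adjusted p = 0.00450) in paw, 3.98 without paw IFE library 2, and 4.78 (SE 0.56, adjusted p = 0.000257) in back. The median log2 fold change over the 20 tested partners was 0.71 in paw and 1.43 in back.

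Of 15 partners of GABA and glycine receptors, 14 were tested, and 0 were called in paw by edgeR (4 at an unadjusted p under 0.05, 3 called by DESeq2 and 0 by limma-trend). In back edgeR called 2 higher and 0 lower, near the 15.4% of all genes it called in either direction there. Of all genes, edgeR called 7.99% higher in back. DESeq2 called 3 of these partners higher and 0 lower in back, and limma-trend 2 higher and 0 lower. The median log2 fold changes were 0.82 in paw and 1.17 in back. Lhfpl4, needed for GABA-A receptor clustering, had 21.5 and 43.2 CPM in back Merkel libraries, against 0.163 and 0.191 CPM in back IFE libraries, a log2 fold change of 7.45 (SE 1.55, adjusted p = 0.00802), and 6.86 without back Merkel library 2. Shisa7, a GABA-A receptor auxiliary protein, had 33.2 and 28.7 CPM in back Merkel libraries, against 0 and 0.267 CPM in back IFE libraries, a log2 fold change of 7.70 (SE 2.05, adjusted p = 0.0269). Both back Merkel libraries exceeded both back IFE libraries for these 2 genes. The Shisa7 call was lost without back Merkel library 1 (adjusted p of 0.0587), back Merkel library 2 (adjusted p of 0.0565) and back IFE library 1 (6.82, adjusted p of 0.0739), and the fitted value was 12.03 without back IFE library 2. The anchoring protein gene of inhibitory synapses, Gphn, was not called, with 65.7 and 159 CPM in paw Merkel against 76.8 and 77.97 CPM in paw IFE libraries and 79.6 and 80.3 CPM in back Merkel against 86.5 and 73.6 CPM in back IFE libraries.

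Of 11 partners of nicotinic receptors, 7 were tested, and 0 were called in paw by edgeR (2 at an unadjusted p under 0.05, 2 called by DESeq2 and 0 by limma-trend). In back Merkel cells edgeR called 1 lower and 0 higher, again near the 15.4% of all genes it called in either direction. Of all genes, 7.45% were called lower in back. The median log2 fold changes were 1.82 in paw and -1.36 in back. The gene called was Lynx1, a membrane-bound inhibitor of nicotinic receptors, which had 0.0761 and 0 CPM in back Merkel libraries, against 12.3 and 12.7 CPM in back IFE libraries. With 1 count in back Merkel cells the ratio of IFE over Merkel was 292 (95% interval 52.3 to 11568), adjusted p = 0.0114. The call was lost without back Merkel library 2 (fitted log2 value -7.24, adjusted p of 0.0688), and the fitted value was -10.87 without back Merkel library 1. In paw Lynx1 had 2.16 and 7.93 CPM in Merkel libraries, against 6.52 and 2.76 CPM in IFE libraries, which overlapped. Ric3, a chaperone of nicotinic receptors, had 56.9 and 129 CPM in paw Merkel against 11.3 and 25.4 CPM in paw IFE libraries, and 98.96 and 95.6 CPM in back Merkel against 34.5 and 9.31 CPM in back IFE libraries. The edgeR adjusted p values were 0.0701 in paw and 0.0544 in back. DESeq2 called Ric3 at both sites and limma-trend in back. In back DESeq2 called 2 of these partners higher and 2 lower, and limma-trend 1 higher and 1 lower.

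A list of 25 further receptors, the delta glutamate receptors and the muscarinic, adrenergic, dopamine and histamine receptors, had 10 tested members. None was called in paw by edgeR (5 at an unadjusted p under 0.05, 5 called by DESeq2 and 0 by limma-trend). In back edgeR called 1 higher and 0 lower, where it called 15.4% of all genes in either direction, 7.99% higher and 7.45% lower. DESeq2 called 6 of these receptors higher and 3 lower in back, and limma-trend 1 higher and 0 lower. The gene called by edgeR was Grid1, a delta receptor that organises synapses and does not open to glutamate. The list had median log2 fold changes of 3.24 in paw and 4.60 in back, or 4.05 with genes at 0 set to their bound. Grid1 had 16.7 and 11.3 CPM in back Merkel libraries, against 0 counts in back IFE libraries, at least 208-fold higher (adjusted p = 0.0147). The call was lost without back Merkel library 1 (adjusted p of 0.0560), back IFE library 1 (adjusted p of 0.0528) and back IFE library 2 (adjusted p of 0.0601). In paw Grid1 had 3.21 and 0.277 CPM in Merkel libraries, against 0.0407 and 0 CPM in IFE libraries.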

How the data were processed

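RNA-seq of 8 libraries, 2 per group, was analysed. The authors deposited whole-number counts per gene for each library (24538 gene rows, no scaling) and, in 1 table, FPKM values, scaled by the authors for gene length and depth (24453 rows). Tools named per the submitters' processing notes, with mm10 as the build, were TopHat2 (2.0.13), Cufflinks (2.2.1), Subread's featureCounts (1.4.6), and DESeq2 (1.6.3). The annotation and strand setting are not given in the sources used here. Per the labels' protocols a fixed small amount of total RNA was amplified before library construction, so counts are not independent molecules, and floors of 3 counts and 95% intervals (exact Clopper-Pearson, conditional on the summed counts) cover counting error only.

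The deposited counts were filtered with filterByExpr by group, which kept 15151 genes, scaled by TMM and fitted with edgeR 4.0.16 (glmQLFit and glmQLFTest) in R 4.3.3, with 1 mean per group over all 8 libraries (4 residual degrees of freedom). Merkel cells were set against IFE cells within each site, paw against back within each cell type, and the 2 Merkel over IFE differences against each other (interaction), 5 comparisons in all. Adjustment was by Benjamini-Hochberg across the tested genes, at 0.05. The SE is the log2 fold change divided by the square root of the F statistic. FPKM was used for levels between genes, for sums over genes and some levels by group, and as an alternative for detection, with no test run on it. The fit was tested on simulated counts. The alternatives were DESeq2 1.42.0, limma-trend (limma 3.58.1, prior count 2), other scalings, filters and detection levels, thinning to the smallest total, the replicate number as a block, fits of only the groups compared, and each library left out. Positions come from GENCODE vM21 on GRCm38, where all 80 symbols were found, and promoter windows from RefSeq. Per-library values were to be given for subunits past the threshold in any comparison and for the 3 highest of each transmitter by mean FPKM, and for up to 4 called genes of each further list. Some genes that these rules name are counted in the totals and not reported singly here. The genes, lists, markers and rules were chosen with earlier results of these data known.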

Additional observations from a re-analysis of the deposited data

How the results depend on the processing

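With 2 libraries per group, precision was limited by their spread, and genes with a few counts in the lower group had no well-defined fold change. Of 160 re-estimates of the 10 subunits called in paw, 144 kept the call, 16 lost it and 0 reversed, and 5 genes (Chrna2, Chrnb4, Gria4, Grik3 and Grin2c) kept it throughout. Of 239 re-estimates of the 15 called in back, 228 kept it, 11 lost it and 0 reversed, and 10 genes kept it throughout. The cause was not tested for any of the losses or for the counts below. The number of subunits called in paw was 15 with DESeq2, 11 with limma-trend, 15 with no filter and 5 when only the 2 paw groups were fitted, and in back 20 with DESeq2, 17 with limma-trend and 16 with only the 2 back groups. The subunits that DESeq2 added were Chrna5, Chrnb2, Gabbr1, Gria3 and Grik2 in paw and Gabrr3, Grik2, Grin3a, Grm2 and Htr1d in back. With only the 2 paw groups, the adjusted p was 0.0897 for Chrna10, 0.0542 for Chrna3, 0.108 for Gria2 and 0.144 for Grm3. Leaving out 1 library at a time gave 7 to 13 in paw and 12 to 17 in back. Between paw and back Merkel cells 2 subunits were called with DESeq2 and 1 (Gria2) with no filter, and between paw and back IFE cells 1 (Gria2) with no filter.

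The number of all genes called in paw was 2227 with DESeq2, 1920 with no filter and 537 with only the 2 groups, and ran between 561 without paw IFE library 2 and 2369 without paw Merkel library 1. In back it was 3963 with DESeq2, and between 1307 without back Merkel library 2 and 3376 without paw Merkel library 2. Between paw and back Merkel cells it was 512 with DESeq2, 17 with no scaling beyond totals, 452 with no filter, 5 with only the 2 groups, and 1 (without either back Merkel library) to 177 (without paw Merkel library 1) with a library left out. Between paw and back IFE cells it was 84 with DESeq2, 120 with no filter and 0 to 67 with a library left out, the highest without back IFE library 2. The interaction called 273 with DESeq2, 1 with RLE scaling, 305 with no filter and 0 to 41 with a library left out.

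The number of subunits detected in paw IFE cells was 17 at 0.5 CPM, 5 at 2 CPM, 17 at 0.1 FPKM, and 14 to 17 on 1 library alone (17 on library 1). In back IFE cells it was 5 at 2 CPM and 12 to 17 on 1 library alone (17 on library 1). In Merkel cells it was 28 on either paw library alone and 29 to 30 on 1 back library. With counts thinned to the smallest total it was 11 in paw IFE cells, and the same as without thinning in the other 3 groups.

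Libraries of the same replicate number did not deviate together (correlations of deviations between -0.04 and 0.08 over 6 pairs of groups), so the numbers were not taken to pair the samples. With the replicate number as a block, 11 subunits were called in paw (the 10 and Chrna5) and 16 in back (the 15 and Grm2). Over all genes the block called 1 between paw and back IFE cells and 4 in the interaction.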

Other observations

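The receptor genes below were singled out after their values were seen. Gabra5, Drd1, Gabrr2 and Hrh3 had most of their counts in a single library, and Chrm1 and Chrm4 did not. Gabra5 had 341 counts (18.5 CPM, 0.851 FPKM) in back IFE library 1 and 0 counts in the other 7 libraries. The dopamine receptor gene Drd1 had 286 counts (26.4 CPM) in paw Merkel library 2, 1.11 CPM in back IFE library 2 and 0 counts in the other 6. Gabrr2 had 139 counts in paw Merkel library 2 against 2 in paw Merkel library 1. The histamine receptor gene Hrh3 had 10.3 and 0.8297 CPM in paw Merkel and 1.597 and 0.391 CPM in back Merkel libraries, against 0 counts in all IFE libraries. Of the muscarinic receptor genes, Chrm1 had 8.44 and 27.3 CPM in paw Merkel against 3.71 and 1.23 CPM in paw IFE libraries and 18.2 and 1.56 CPM in back Merkel against 0 and 1.03 CPM in back IFE libraries, and Chrm4 had 1.39 and 18.9 CPM in paw Merkel against 1.43 and 0.197 CPM in paw IFE libraries and 3.19 and 15.6 CPM in back Merkel against 0.597 and 0 CPM in back IFE libraries. Neither was called by edgeR, and DESeq2 called both in back.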
